A study of Mus musculus with 6 samples.

Results

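The 10 genes described here are used as markers of border macrophages and monocytes: Mrc1, Cd163, Lyve1, Pf4, Ms4a6b, Ms4a6c, Ms4a6d, Ms4a7, F13a1 and Arg1. They were taken by name from the array's annotation, and all 10 had at least 1 probe set annotated to that gene alone, among 18194 genes so measured. Each gene is read by its brightest probe set over the 6 arrays.

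RNA came from adult male mice of strain C57BL/6, from the subventricular zone, a neurogenic tissue beside the lateral ventricle. The MCAO group (3 arrays) was taken 48 h after middle cerebral artery occlusion, a stroke model, from the side of the lesion, and the sham group (3 arrays) 48 h after sham surgery. The labels name no transgene or drug, give no age beyond adult, and do not tie the arrays to individual mice. The p-values therefore measure the spread between arrays, which could be technical in part. Of 16 measured markers of neuroblasts and progenitors of this niche, 15 lay above the median gene in sham.

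Border macrophages live in the meninges, the choroid plexus and the spaces around blood vessels, and differ from microglia, the macrophages of the brain tissue itself. They take up waste and blood products through scavenger receptors. After stroke, monocytes from the blood enter the injured tissue and turn into macrophages that share many of these markers, and activated microglia can express some of them as well. In whole tissue, more cells of a type and more RNA per cell cannot be told apart.

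Levels are log2 expression values after quantile normalization between arrays, and differences are MCAO minus sham on that scale. Tested with limma, with p-values adjusted by Benjamini-Hochberg over all 18194 genes and a threshold of 0.05, 5 of the 10 genes rose in MCAO tissue, 0 fell and 5 did not pass. The background is 1.12% of all genes rising and 0.0165% falling. The genes that rose were Ms4a6d, Ms4a6b, Mrc1, Ms4a6c and F13a1. At an unadjusted p under 0.05 stood 7 genes, all higher in MCAO, against 6.32% of all genes higher and 2.46% lower. In 6 genes all MCAO values lay above all sham values, against 8.44% of all genes, and in 1, Cd163, all lay below, against 5.37%. The median difference of the 10 was 0.50 log2, and that of all genes was −0.0064.

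All 10 genes read low in sham tissue, none of them above the median gene (7.13 log2), and 3 lay above the median gene in MCAO tissue. At such levels log2 array values understate a fold change, since part of the signal is background. Brightness also depends on the probe, so the levels give no order among genes.

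Sample number 1 of each group lay away from the remaining 4 arrays on the leading principal component (40.8% of the variance). Without both of these arrays the same 5 genes passed and no other did, against 1.15% of all genes rising in that fit. Their differences were then 1.34 for Ms4a6d, 1.20 for Ms4a6b, 1.04 for Mrc1, 0.74 for Ms4a6c and 0.58 for F13a1.

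**Figure D1:**
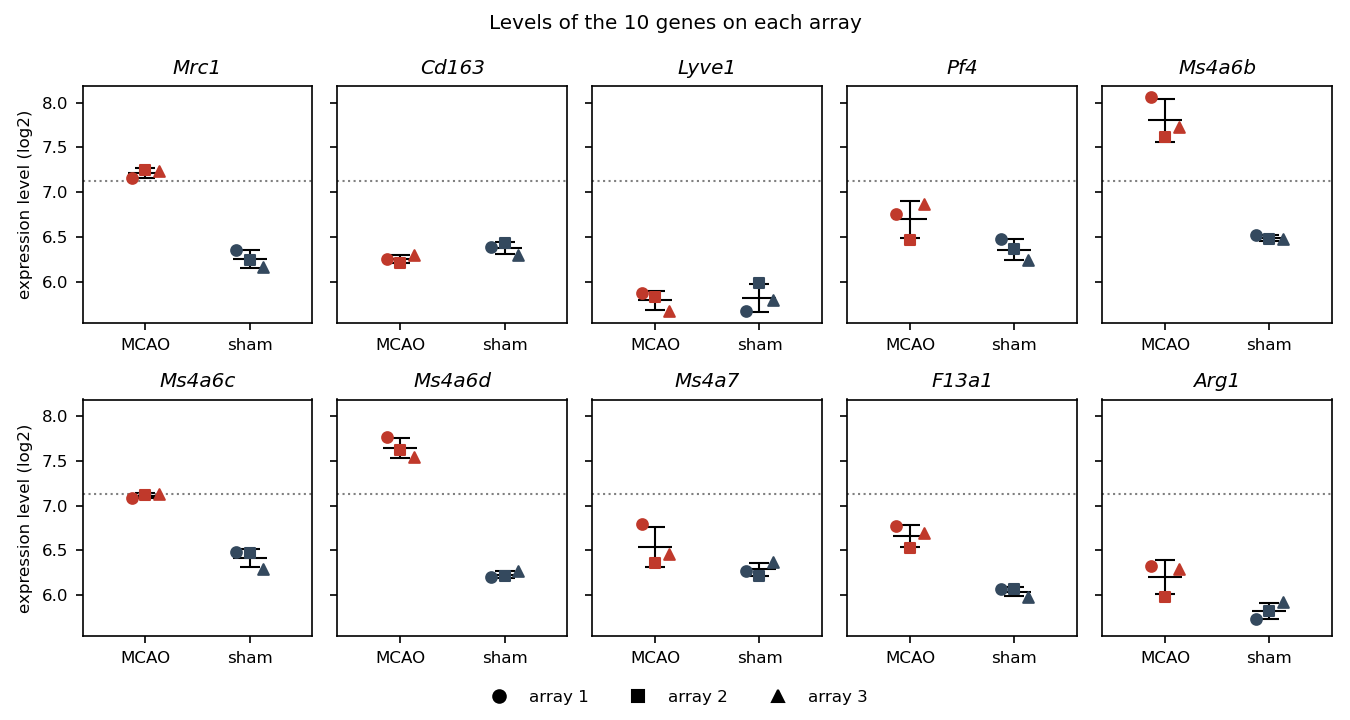
Log2 expression level of each of the 10 genes on the 3 MCAO arrays (left) and the 3 sham arrays (right), with the sample number as the marker shape, the mean and the SD as bars, and the median gene in sham as a dotted line. Ms4a6d, Ms4a6b, Mrc1, Ms4a6c, F13a1 and Arg1 have no overlap between groups with MCAO above, while Lyve1 lies low in both.

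Among the scavenger and uptake receptors, Mrc1 rose while Cd163 and Lyve1 did not pass. Mrc1 encodes the mannose receptor, a lectin that border macrophages use to take up glycoproteins. It read 7.16, 7.25 and 7.23 on MCAO arrays 1 to 3, against 6.36, 6.24 and 6.16 on sham arrays 1 to 3. The MCAO arrays lay close together and all above sham, a difference of 0.96 ± 0.080 log2 (SE, n = 3 per group), or 1.95-fold (adjusted p = 0.00304). The call held whichever array was left out, with differences from 0.91 to 1.01.

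Cd163 encodes the receptor for haemoglobin bound to haptoglobin. It read 6.25, 6.21 and 6.30 on the MCAO arrays, against 6.39, 6.44 and 6.30 on the sham arrays. MCAO values were slightly lower, with MCAO 3 and sham 3 apart by 0.0078 log2. The difference of −0.13 had a 95% interval from −0.30 to 0.043 (limma, adjusted p = 0.765).

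Lyve1, a hyaluronan receptor of perivascular macrophages and of lymphatic endothelium, read 5.88, 5.83 and 5.68 on the MCAO arrays, against 5.68, 5.98 and 5.79 on the sham arrays. The groups overlapped and the difference was −0.024, with a 95% interval from −0.26 to 0.21. Its other probe set gave −0.036. In sham tissue Lyve1 stood at percentile 7.73 of all genes by level, where absence of the transcript and a low level cannot be told apart.

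Pf4 encodes platelet factor 4, a chemokine stored in platelets that mouse border macrophages also express. It read 6.75, 6.47 and 6.87 on the MCAO arrays, against 6.47, 6.36 and 6.24 on the sham arrays. MCAO 2 lay level with sham 1 and the other MCAO arrays above it. The difference of 0.34 (95% interval 0.064 to 0.61) did not pass (limma, adjusted p = 0.397).

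The MS4A genes encode tetraspan membrane proteins found mainly on blood and immune cells, and Ms4a6b, Ms4a6c and Ms4a6d are close relatives within the family. All 3 rose. Ms4a6d read 7.77, 7.62 and 7.54 on the MCAO arrays, against 6.20, 6.21 and 6.27 on the sham arrays. Its difference of 1.42 ± 0.082 log2 (SE), or 2.67-fold, was the largest of the 10 by brightest probe set (adjusted p = 0.00194).

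Ms4a6b read 8.06, 7.61 and 7.73 on the MCAO arrays, against 6.52, 6.47 and 6.47 on the sham arrays. The sham values were nearly equal and the MCAO values spread more, with MCAO 1 highest. It rose by 1.31 ± 0.12 (SE), or 2.48-fold (limma, adjusted p = 0.00405).

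Ms4a6c read 7.09, 7.12 and 7.13 on the MCAO arrays, against 6.49, 6.47 and 6.30 on the sham arrays, so that the groups were apart by more than the spread within either. It rose by 0.70 ± 0.079 (SE), or 1.62-fold (limma, adjusted p = 0.00895). Without sham 3 its difference was 0.64 and it did not pass (adjusted p = 0.0557, with 1.14e-04 to 0.0557 over the alternatives tried).

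Ms4a7, a marker that in mice separates border macrophages from resting microglia, read 6.79, 6.36 and 6.46 on the MCAO arrays, against 6.28, 6.22 and 6.37 on the sham arrays. MCAO 1 stood above the other arrays and MCAO 2 lay within the sham range. The difference of 0.25 (95% interval −0.027 to 0.52) did not pass (limma, adjusted p = 0.650), and it was 0.11 without both arrays numbered 1.

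The probe sets of these genes do not all agree. The Ms4a6d probe set used has a name ending in _s_at, which marks probes that may bind related transcripts. Another probe set of Ms4a6d without that mark also rose, by 1.35 ± 0.097 (SE; limma over 45037 probe sets, adjusted p = 0.00386). The dimmest, at percentile 0.193 of probe sets by level, read −0.083. The other probe sets of Ms4a6b and Ms4a6c read 0.24 and 0.0057, and that of Ms4a7 read −0.044, all at percentile 24.2 of brightness or lower and none past the threshold. When all probe sets of each gene were averaged in place of taking the brightest, Ms4a6d, Ms4a6b and Ms4a6c rose by 0.90, 0.77 and 0.35 (limma, adjusted p = 0.00249, 0.0388 and 0.0495), Ms4a7 read 0.10, and Mrc1, with its single probe set, had the largest difference of the 10 at 0.96.

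The MS4A genes lie together on mouse chromosome 19. Of 21 family members placed there by the GRCm38.p6 assembly 17 were measured, and 3 of the 17 rose, namely Ms4a6c, Ms4a6b and Ms4a6d. Ms4a4d, which lies between Ms4a6b and Ms4a6d, read 0.0028, and Ms4a4b, which lies next to Ms4a6c on the other side, read −0.025. The B-cell gene Ms4a1, the mast-cell gene Ms4a2 and the gene Ms4a3 of granulocyte precursors read −0.0081, −0.13 and −0.0081.

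**Figure D2:**
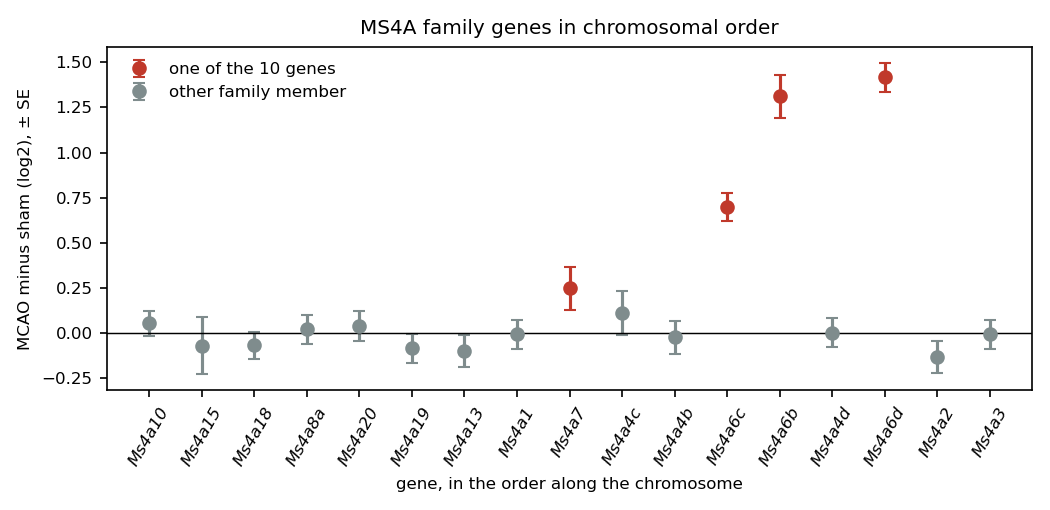
MCAO minus sham difference (log2, with SE bars, n = 3 arrays per group) of the 17 measured MS4A genes in their order along the chromosome, with the 4 genes of the marker set in red. Ms4a6c, Ms4a6b and Ms4a6d stand apart from their neighbours, which lie near 0.

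RefSeq promoter windows (GRCm38.p6, from 250 bases before to 50 after the start) were at hand for 7 of the 10 genes, and not for Lyve1, Ms4a6d and Arg1. Those of Ms4a6b (chr19:11518309-11518608, plus strand) and Ms4a6c (chr19:11469118-11469417, plus strand) are shown because both genes rose and their windows share long stretches. Capitals mark runs of at least 20 bases that are identical in both.
Ms4a6b: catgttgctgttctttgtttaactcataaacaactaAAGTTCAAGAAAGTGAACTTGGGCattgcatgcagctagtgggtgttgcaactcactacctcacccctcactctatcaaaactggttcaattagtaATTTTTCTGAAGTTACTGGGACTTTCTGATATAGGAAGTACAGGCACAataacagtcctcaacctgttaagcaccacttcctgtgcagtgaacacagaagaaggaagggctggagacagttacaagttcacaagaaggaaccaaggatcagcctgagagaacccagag
Ms4a6c: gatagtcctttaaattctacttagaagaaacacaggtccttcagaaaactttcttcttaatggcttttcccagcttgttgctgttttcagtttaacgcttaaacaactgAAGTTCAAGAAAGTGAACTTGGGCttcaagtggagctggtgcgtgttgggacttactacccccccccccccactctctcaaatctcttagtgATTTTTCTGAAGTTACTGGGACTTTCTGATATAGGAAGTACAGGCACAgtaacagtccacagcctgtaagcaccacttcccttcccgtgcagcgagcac

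The longer run holds 48 bases and the shorter 24, and of 32851 promoter windows these 2 alone hold the longer run. The letters AGGAAGT, a core bound by ETS-family factors such as the myeloid regulator PU.1, stand in the longer run. Searched on both strands, they occur in 9.35% of all windows and in 5 of the 9 windows of the 7 genes (1 each of F13a1, Mrc1, Ms4a6b, Ms4a6c and Pf4). The letters GAAAGTGAA, which resemble part of an interferon-response element, stand in the shorter run and occur in 0.581% of all windows and in 2 of the 9, those of Ms4a6b and Ms4a6c. The letters GAGGAA, another ETS core that can overlap AGGAAGT, were searched too and occur in 28.3% of all windows and in 5 of the 9, of F13a1, Mrc1, Ms4a7 and Pf4 but neither Ms4a6b nor Ms4a6c. These letters were chosen after the windows were read, and a match is a description of the sequence and not a binding site.

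F13a1 and Arg1 encode enzymes that macrophages can make. F13a1 encodes the catalytic subunit of coagulation factor XIII, which cross-links fibrin and is made by platelets, monocytes and border macrophages. It read 6.77, 6.53 and 6.69 on the MCAO arrays, against 6.07, 6.07 and 5.98 on the sham arrays, with no overlap. It rose by 0.62 ± 0.086 (SE), or 1.54-fold (limma, adjusted p = 0.0173). The call was lost without MCAO 3, sham 1, sham 2 or sham 3 (adjusted p = 0.0896, 0.0527, 0.0637 and 0.122), with differences from 0.57 to 0.69 whichever array was left out. In sham tissue F13a1 stood at percentile 15.8 of all genes by level.

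Arg1 encodes arginase 1, which splits arginine into ornithine and urea and is known from macrophages activated by interleukin-4. It read 6.33, 5.98 and 6.30 on the MCAO arrays, against 5.73, 5.82 and 5.92 on the sham arrays. MCAO 2 lay just above the highest sham array and the other MCAO arrays further above. The difference was 0.38 (95% interval 0.12 to 0.63), which did not pass (limma, adjusted p = 0.254). With the sample number as a block it passed (adjusted p = 0.0288, with 0.0288 to 0.652 over the alternatives tried), so that 6 of the 10 genes passed, against 4.82% of all genes rising in that fit.

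Arrays of the same number deviated together from their group means, and the differences were therefore also taken within numbers. Mrc1 differed by 0.80, 1.01 and 1.07 in pairs 1 to 3, Ms4a6d by 1.57, 1.41 and 1.27 and Ms4a6b by 1.54, 1.14 and 1.25. Each pair of arrays thus showed these 3 genes higher in MCAO. Ms4a6c differed by 0.60, 0.65 and 0.84, F13a1 by 0.70, 0.45 and 0.71 and Arg1 by 0.60, 0.16 and 0.37. Pf4 differed by 0.28, 0.11 and 0.63 and Ms4a7 by 0.51, 0.14 and 0.089. Cd163 was lower in each pair, by −0.14, −0.23 and −0.0078, and Lyve1 differed in sign between pairs, at 0.20, −0.16 and −0.11.

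**Figure D3:**
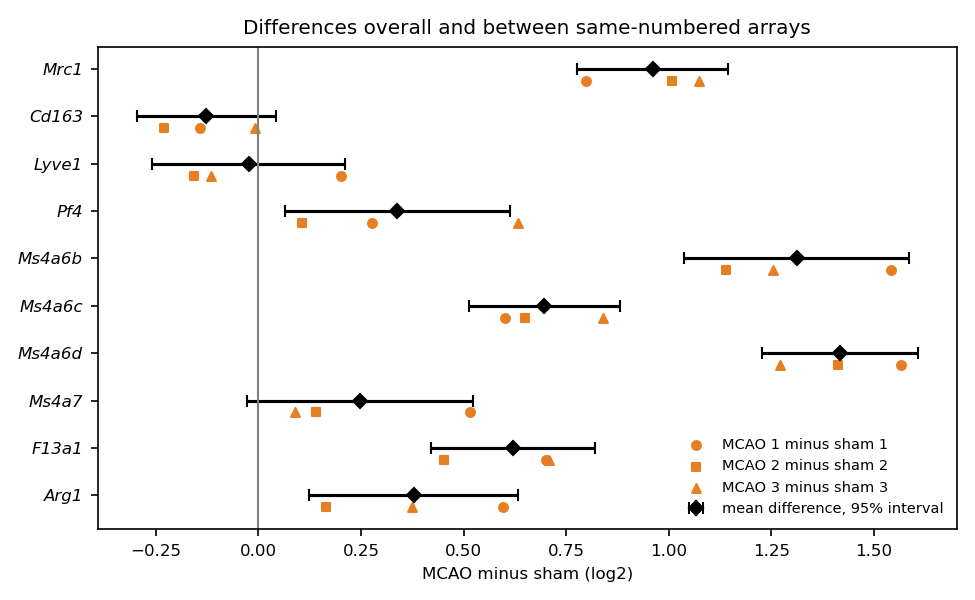
MCAO minus sham difference (log2) of each of the 10 genes, as the mean difference with limma's 95% interval (diamonds, n = 3 arrays per group) and as the difference between arrays of the same number (orange markers). Intervals of Cd163, Lyve1 and Ms4a7 include 0, and the pairs of Lyve1 lie on both sides of it.

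Of 20 other border macrophage genes measured, 1 rose and 19 did not pass, against 1.12% of all genes rising, with a median difference of 0.090 log2. At an unadjusted p under 0.05 stood 7 of the 20, all higher, against 6.32% of all genes. The gene that rose was Dab2, a clathrin adaptor of endocytosis, at 7.69, 7.66 and 8.18 on the MCAO arrays, against 6.40, 6.62 and 6.67 on the sham arrays (1.28 ± 0.15, SE; adjusted p = 0.0105). It did not pass without sham 3 (adjusted p = 0.0607). The scavenger receptor gene Stab1 read 0.41 (adjusted p = 0.0953). The folate receptor gene Folr2, the sialoadhesin gene Siglec1 and the carbonyl reductase gene Cbr2, which define border macrophages in mice, read 0.043, −0.092 and 0.14 (adjusted p = 0.969, 0.913 and 0.876). With the block 5 of the 20 rose, against 4.82% of all genes, namely Stab1 (adjusted p = 0.0122), Dab2, Maf, Cd36 and Tgfbi.

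Of 21 other monocyte genes 6 rose and 15 did not pass, with a median of 0.13. The calcium-binding protein genes S100a6 and S100a4 rose by 1.79 and 1.80, but astrocytes and other cells express both. Plac8, a gene of blood monocytes and other leukocytes, read 6.89, 6.52 and 6.70 on the MCAO arrays, against 6.09, 6.08 and 6.04 on the sham arrays, and rose by 0.64 ± 0.10 (SE; adjusted p = 0.0329). Plac8 did not pass without MCAO 3, sham 1, sham 2 or sham 3 (adjusted p = 0.132, 0.0879, 0.108 and 0.180), and S100a4 did not without MCAO 3 or sham 3 (0.0504 and 0.0734). The others that rose were Lyz2, Fn1 and Cd52. Ccr2, the chemokine receptor that defines inflammatory monocytes, read 6.81, 6.82 and 7.06 on the MCAO arrays, against 6.74, 6.97 and 6.87 on the sham arrays, with overlapping groups (limma, adjusted p = 0.983). Its probe sets do not all agree. Adjusted p was 0.223 by the one with the largest variance and 0.362 by their mean, also not past the threshold. The count of these monocyte genes that rose was 2 without MCAO 3, 2 without sham 2 and 1 without sham 3. With the block 8 rose and 2 fell, against 4.82% and 1.30% of all genes.

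In 6 lists of genes from the pathways that the markers act in, 0 or 1 gene passed in each. Since 1.12% of all genes rose, 0 or 1 gene in lists of 8 to 19 is no result about these lists. Here and in the later lists, counts at an unadjusted p under 0.05 stand against 6.32% of all genes higher and 2.46% lower. Counts with the block stand against 4.82% of all genes rising and 1.30% falling. Of 18 genes of the mannose receptor family and other scavenger receptors 1 rose (3 with the block; median 0.070), Cd68, a lysosomal glycoprotein of phagocytes, by 1.22 ± 0.16 (SE; adjusted p = 0.0152, and 0.0875, 0.0637 and 0.101 without MCAO 3, sham 2 and sham 3). Of 11 haemoglobin clearance genes 0 passed by limma (2 at an unadjusted p under 0.05, 2 with the block; median 0.11), with the haem oxygenase gene Hmox1 at 0.71 (adjusted p = 0.253, and 0.0314 with the block). Of 14 arginine metabolism genes 0 passed by limma (3 higher and 1 lower at an unadjusted p under 0.05, 3 with the block; median 0.053). There Arg2, which encodes the mitochondrial arginase, read −0.28 and the inducible nitric oxide synthase gene Nos2 −0.0056. Slc7a7 and Oat, lowest in p in that list, read 0.43 and 0.52 with all MCAO values above sham (limma, adjusted p = 0.0542 and 0.0891). Both passed with the block (adjusted p = 0.00385 and 0.00131).

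Of 19 genes tied to activation by interleukin-4 or interleukin-13, 0 passed by limma (4 at an unadjusted p under 0.05, 3 with the block; median 0.0023). Among them the chitinase-like gene Chil3 read 6.23, 6.22 and 6.25 on the MCAO arrays, against 5.66, 5.89 and 5.79 on the sham arrays, without overlap (0.45; adjusted p = 0.0523, and 0.00454 with the block). Of 15 factor XIII and fibrin genes 1 rose (3 with the block; median 0.079), the fibronectin gene Fn1, by 0.61 (adjusted p = 0.0383), which did not pass without MCAO 1, MCAO 3, sham 1, sham 2 or sham 3 (0.0768, 0.127, 0.112, 0.0884 and 0.180). Of 8 partners of platelet factor 4, 1 rose (2 with the block; median 0.15), the proteoglycan gene Srgn, by 0.98 (adjusted p = 0.00667, and 0.0543 without sham 3).

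**Figure D4:**
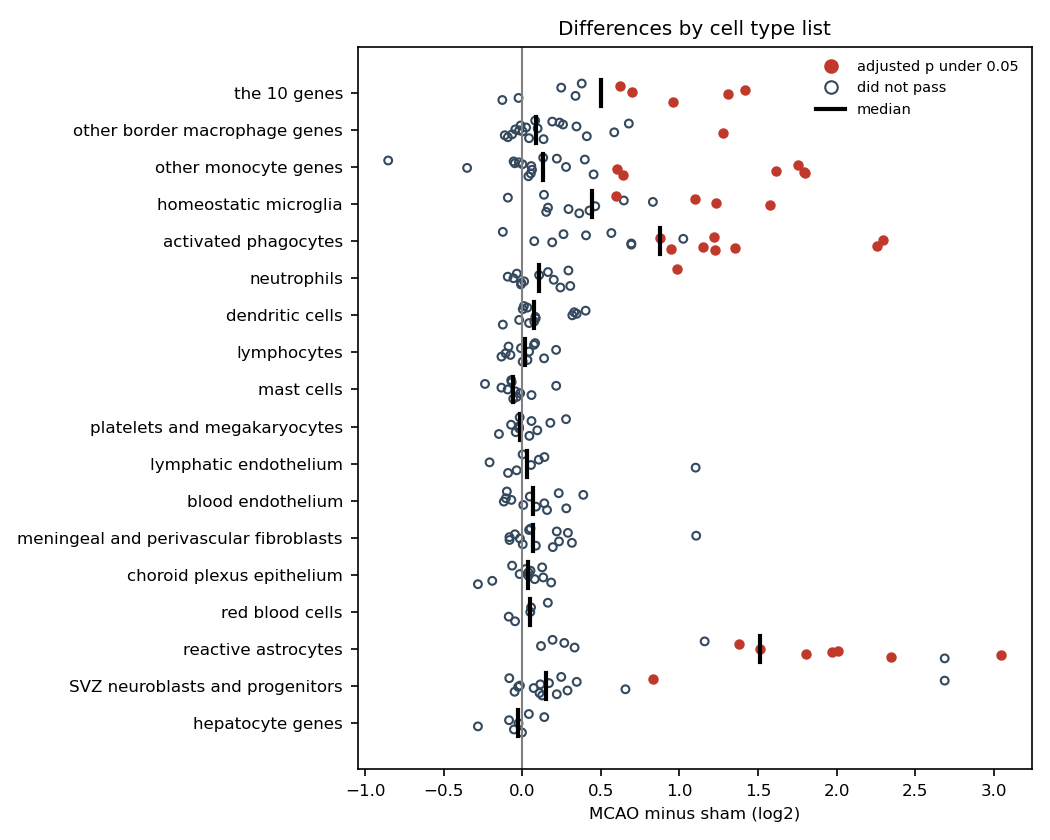
MCAO minus sham difference (log2) of every measured gene in the marker set and in 17 lists of cell type markers, with filled red points for genes past an adjusted p of 0.05 and a black bar at each list's median. The median is furthest right in reactive astrocytes, at 1.51. Those of the 10 genes, the homeostatic microglia and the activated phagocytes lie at 0.50, 0.45 and 0.87, and those of the other lists between −0.057 and 0.15.

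By list median, reactive astrocyte, microglia and activated phagocyte genes were higher on the MCAO arrays, where 5 of the 10 genes rose. Their part in the results was not tested. Of 13 reactive astrocyte genes 7 rose, with a median of 1.51, the largest of the lists counted, and a mean level of 8.33 to 8.84 on the MCAO arrays, against 6.94 to 7.24 on the sham arrays. Cd44 and S1pr3 had the lowest p there and rose by 1.97 and 2.01 (limma, adjusted p = 0.00304 for both). Of 14 homeostatic microglia genes 4 rose (9 with the block, 1 without MCAO 2, MCAO 3 or sham 3, and 2 without sham 2, on the deposited values or with arrays shifted to a common median), with a median of 0.45. The mean level of these 14 ran from 8.34 to 8.71 on the MCAO arrays, against 7.92 to 7.98 on the sham arrays. Fcrls and Olfml3, the 2 of them with the lowest p, rose by 1.58 and 1.23 (limma, adjusted p = 0.00304 and 0.0165). The call of Fcrls held whichever array was left out, and that of Olfml3 was lost without MCAO 2, MCAO 3 or sham 3. The defining microglia gene Tmem119 read 0.36 and did not pass (adjusted p = 0.669), but rose with the block (adjusted p = 0.0244). P2ry12, another, read 0.15 (adjusted p = 0.972). Of 17 activated phagocyte genes 8 rose (13 with the block, 5 without MCAO 3 and 4 without sham 3, median 0.87), with a mean level of 8.48 to 8.89 on the MCAO arrays, against 7.71 to 7.88 on the sham arrays. Ctsc and Fcgr1 had the lowest p among these and rose by 2.25 and 1.35 (limma, adjusted p = 0.0027 and 0.00304).

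In 5 lists of other cells, some of which carry single markers, no gene passed. Of 11 platelet and megakaryocyte genes, cells that hold Pf4 and F13a1, 0 passed by limma (2 at an unadjusted p under 0.05), and their mean level was 6.56 to 6.67 on the MCAO arrays, against 6.56 to 6.58 on the sham arrays. The platelet genes Ppbp and Itga2b read −0.021 and 0.045. Of 8 lymphatic endothelium genes, cells that hold Lyve1, 0 passed by limma (1 at an unadjusted p under 0.05, 1 with the block). The defining gene Prox1 read −0.090. Pdpn, lowest in p there, read 1.10 with all MCAO values above sham (limma, adjusted p = 0.154). Pdpn passed with the block (adjusted p = 0.00668). Of 14 fibroblast genes of the meninges and vessel walls 0 passed by limma (3 at an unadjusted p under 0.05, 2 with the block), with Col1a1 at 0.0032 and Dcn at 0.19. Igfbp2 and Col1a2, lowest in p there, read 1.11 and 0.32 with all MCAO values above sham (limma, adjusted p = 0.0793 and 0.373). Igfbp2 passed with the block (adjusted p = 0.00219) and without MCAO 2 (adjusted p = 0.0117). Of 12 choroid plexus genes and 5 red blood cell genes 0 passed by limma, and 0 stood at an unadjusted p under 0.05. The transthyretin gene Ttr, which defines choroid plexus, read 7.27 ± 0.30 in MCAO and 7.55 ± 0.07 in sham (SD, n = 3).

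To see which genes differed by more than the microglia genes did, the mean of the 14 homeostatic microglia genes was subtracted on each array. That mean itself was 0.56 log2 higher in MCAO. Relative to it, Ms4a6d and Ms4a6b were still higher in MCAO, by 0.85 and 0.75, and Mrc1 by 0.40. Mrc1 was barely without overlap, at −1.55 on MCAO 1 against −1.57 on sham 1. Its difference was 0.29 without MCAO 2 and 0.52 without MCAO 1. Ms4a6c and F13a1 differed by 0.13 and 0.057, with overlapping groups (exact permutation p = 0.4 and 0.5, 2-sided). Those values moved with single arrays, Ms4a6c to 0.24 without MCAO 1 and 0.044 without MCAO 2, and F13a1 to 0.10 without MCAO 1 and 0.014 without sham 3. Arg1, Ms4a7, Lyve1 and Cd163 were lower relative to the microglia mean, by −0.19, −0.32, −0.59 and −0.69, while Pf4 differed by −0.22 (exact permutation p = 0.2), and by −0.083 without both arrays numbered 1. A gene with no difference of its own also reads lower here, by about the 0.56 that the subtracted mean gained in MCAO. These lower values are therefore no sign of a fall in those genes. In 7 of the 10 genes, 3 higher and 4 lower, the groups did not overlap on this scale. Each stood at p = 0.1, the smallest that an exact permutation test of 3 arrays against 3 can give, or 0.143 adjusted over the 10. This test therefore cannot reach 0.05 with these arrays. The share of all genes without overlap was not counted on this scale, so the counts of 3 and 4 have nothing to be set against. A gene whose signal is mostly background cannot follow the list mean. That applies most to Lyve1 and Arg1, at percentiles 7.73 and 7.98 of all genes by level in sham.

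**Figure D5:**
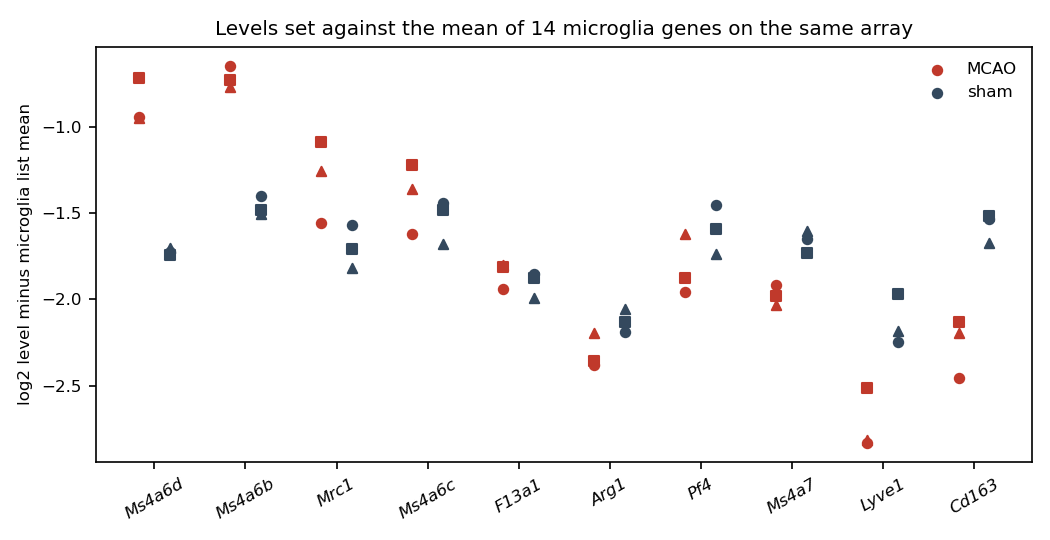
Log2 level of each of the 10 genes minus the mean of 14 homeostatic microglia genes on the same array, for MCAO (red, left) and sham (dark, right), with marker shapes for sample numbers 1 to 3 (circle, square, triangle). Only the distance between red and dark points within a gene can be read. Ms4a6d and Ms4a6b are higher in MCAO by 0.85 and 0.75, and Cd163 and Lyve1 lower. The subtracted mean is itself 0.56 higher in MCAO, so a gene with no difference of its own also reads lower.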

How the data were processed

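Total RNA, labelled with biotin, was measured on 6 arrays. The deposited values are log2 expression values for 45101 probe sets; how the authors corrected background, summarised probes and normalized is not stated in the sources used here. Array medians ran from 6.57 to 6.59 but upper quantiles differed, so values were quantile-normalised (limma 3.58.1, R 4.3.3). The array's annotation gave 1 symbol to 34958 probe sets, several to 932 and none to 9211, and the brightest single-symbol probe set stood for each of 18194 genes. MCAO was compared with sham by limma (lmFit, eBayes), 2-sided. The number of arrays limits the precision.

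Sample numbers 1 to 3 occur in both groups. Deviations from the group means correlated at 0.77, 0.44 and 0.48 within the numbers, so the number was used as a block in an alternative fit, printed where it changed a call or moved a count by over 1.5 times. Other alternatives changed the normalization, probe set choice, dim-gene filter, variance model and arrays used.

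The genes, lists and tests were chosen with earlier results of these data known. Named genes are the 10 markers, a set of defining markers and some of the 2 genes per list that had the lowest p. The remaining lowest-p genes are not printed. Further genes are named because they passed the threshold or neighbour an Ms4a6 gene, after their values were seen. Lists of neutrophils, dendritic cells, lymphocytes, mast cells, blood endothelium and hepatocytes were also counted.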

Additional observations from a re-analysis of the deposited data

How the results depend on the processing

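The 5 genes that rose kept their direction in all 79 fits of the 16 alternatives that measured them, and kept the call in 74. Direction could not change with the dim-gene filter, another variance model or the block on the same values, which leave the difference as it was. The probe set with the largest variance also gave the same differences for these 5 genes. The 5 lost calls, of Ms4a6c and F13a1, all came from leaving out an array. The number of the 10 genes past the threshold was 3 to 5 with an array left out, lowest without sham 3, and the number over all genes was 44 to 209, against 206 with all arrays. With the replicate block it was 1113, and 817 when that block was used on deposited values, where Arg1 did not pass (adjusted p = 0.0523); the block ended no call among the 10. Lyve1 changed sign when an array was left out, between −0.094 and 0.060. Relative to the microglia mean, Mrc1 read 0.59 without both arrays numbered 1, and averaging all probe sets of a gene, Ms4a6b, Ms4a6c, Ms4a6d and Ms4a7 read 0.24, −0.18, 0.36 and −0.43, since dim probe sets enter that mean. The filter on dim genes left 4 of the 10 genes to test, those that passed apart from F13a1, and gave no value for the other 6. It used the mean over all 6 arrays, and in sham all 4 genes lay below its cut of 6.58. They passed the filter only through their MCAO values, so the calls in that fit are no separate support. Dim signal limits what can be said of all 10 genes, none of which lay above the median gene in sham.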

Other observations

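Of 13 neutrophil genes 1 rose by limma (median 0.11), the chitinase-like gene Chil1, by 0.98 (adjusted p = 0.0417), which astrocytes also express; it did not pass without MCAO 2, MCAO 3, sham 1, sham 2 or sham 3 (0.0574, 0.151, 0.112, 0.0778 and 0.217). Of 13 dendritic cell genes 0 passed by limma (4 at an unadjusted p under 0.05, 2 with the block), and the class II genes H2-Aa and H2-Ab1 read 0.32 and 0.35 (adjusted p = 0.199 and 0.269, and 0.0396 and 0.0400 with the block). Of 12 lymphocyte genes, 11 mast cell genes and 7 hepatocyte genes 0 passed by limma, and 0 stood at an unadjusted p under 0.05. Of 12 blood endothelium genes 0 passed by limma (3 at an unadjusted p under 0.05, 1 with the block). Of 16 neuroblast and progenitor genes 1 rose by limma (3 with the block, median 0.15), the proliferation gene Mki67, by 0.83 (adjusted p = 0.0134). Mki67 did not pass without MCAO 2, MCAO 3 or sham 3. Gfap, which is also in the reactive astrocyte list, had the largest difference of the 16, at 2.69 with all MCAO values above sham. It did not pass (limma, adjusted p = 0.140), but passed with the block (5.62e-07) and without both arrays numbered 1 (7.90e-05).

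In the wider list of MS4A-related genes, Tmem176a, which encodes a membrane protein related to the family, read 8.85 ± 0.20 in MCAO and 7.78 ± 0.26 in sham (SD, n = 3) and rose by 1.06 (limma, adjusted p = 0.0199). It did not pass without MCAO 2, MCAO 3 or sham 3 (0.0574, 0.0834 and 0.127). Its neighbour in the family Tmem176b read 1.03 (adjusted p = 0.101, and 4.00e-05 with the block).

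The 5 genes whose levels over the 6 arrays were most like those of Mrc1, by Pearson's r, were BC035044, Nln, Fstl1, Cyp1b1 and Mars1, with r between 0.986 and 0.995. Their differences were 0.58, 0.31, 0.25, 0.46 and 0.18, of which those of BC035044 and Cyp1b1 passed (limma, adjusted p = 0.0155 and 0.0284). For Lyve1 they were ccdc198, Gm6590, Mrln, Slfnl1 and Helq, with r between 0.964 and 0.997 and differences between −0.045 and 0.014. With 6 arrays in 2 groups and 18194 genes, such values describe these arrays and are given without a test.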
